A study of Pomacea canaliculata with 34 samples.

Results

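The step from Stage 5 to Stage 6 of embryonic development was examined in Pomacea canaliculata, an apple snail that lives in fresh water, from 6 of the 34 libraries of a developmental time course. Stage 6 (replicates 1, 2 and 3) was compared with Stage 5 (replicates 1, 2 and 3), as the sample titles name them. The genes that differed were then followed through the other stages, Stage 2, Stage 3, Stage 4 and Stage 7 with 3 libraries each and Stage 8, Stage 9, Stage 10 and the hatchling with 4 each. Every library held polyadenylated RNA of whole animals, with embryos taken out of their eggs. The labels give no strain, treatment or clutch and no age beyond the stage. They do not say whether the libraries of a stage came from separate clutches, so every p-value below reflects the spread among the libraries as sequenced, and that spread may be technical.

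A gastropod embryo begins with RNA stored in the egg by the mother, which is lost as the embryo's own genes are switched on. Organs such as the shell gland, foot, eyes and nervous system then form over a long series of stages, and the genes of each differentiated tissue are usually switched on in turn. RNA of a whole embryo averages over all of these tissues. In such bulk samples, more cells of a type and more RNA of a gene per cell cannot be told apart. The counted genes carry only LOC identifiers in the files and the reference table, so no gene is given a function here.

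Reads counted in genes ran from 20994479 to 23030901 per Stage 6 library and from 16608796 to 21358973 per Stage 5 library, within a range of 13392123 to 95942469 over all 34 libraries. Of 21131 counted genes, 17441 passed the filter on low counts and were tested. The median log2 fold change of all tested genes between Stage 6 and Stage 5 was 0.01, so the scaling left no general shift. Levels are given in CPM, read counts scaled to a common library total. They are not divided by gene length and are compared between stages, not between genes.

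The Stage 6 libraries lay further along the time course than the Stage 5 libraries. Each library was placed on the straight line from the mean profile of Stage 4, set to 0, to the mean profile of Stage 7, set to 1, over all tested genes. The Stage 6 libraries stood at 0.528, 0.576 and 0.581, against 0.368, 0.333 and 0.338 for the Stage 5 libraries. All Stage 6 libraries were above all Stage 5 libraries. The means were 0.562 ± 0.0292 at Stage 6 and 0.346 ± 0.0190 at Stage 5 (SD, n = 3 each), a difference of 0.215. A two-sided exact permutation test gave p = 0.1, the smallest that 3 against 3 libraries allow, so it could not pass 0.05. When the genes called between Stage 6 and Stage 5 were left out, the difference was 0.185.

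**Figure D1:**
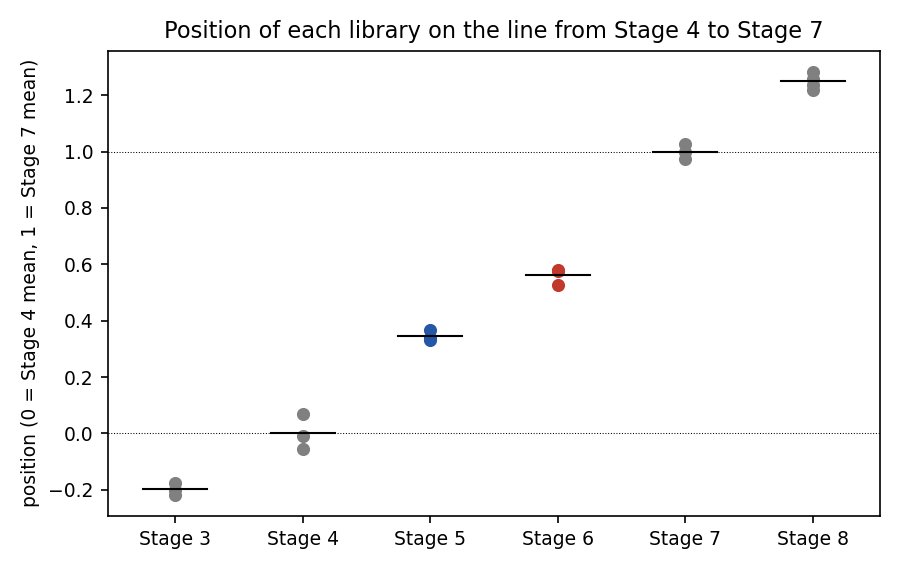
Position of each library of Stage 3 to Stage 8 (points) on the line from the Stage 4 mean (0) to the Stage 7 mean (1), with the stage mean as a bar. The Stage 6 points lie between 0.528 and 0.581 and the Stage 5 points between 0.333 and 0.368, and the stages follow each other without overlap.

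The step was small and most of the genes that changed were higher at Stage 6. The edgeR quasi-likelihood test with Benjamini-Hochberg adjustment called 596 of 17441 genes, or 3.42%, at an adjusted p under 0.05. Of these, 540 were higher at Stage 6 (3.1% of tested genes) and 56 were lower (0.321%), so 90.6% of the calls were higher. At an unadjusted p under 0.05 the number was 2558. Leaving out 1 library changed the number of calls by over 1.5 times for 5 of the 6 libraries, with 319 calls without Stage 6 replicate 2, 357 without Stage 6 replicate 3, 354 without Stage 5 replicate 3, 377 without Stage 5 replicate 1 and 394 without Stage 5 replicate 2.

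The rises were larger than the falls. The 540 genes called higher had a median log2 fold change of 1.10, and 305 of them differed by 2-fold or more, 71 by 4-fold or more and 17 by 8-fold or more. The 56 genes called lower had a median log2 fold change of -0.29, and 5 of them differed by 2-fold or more. Over all tested genes the median size of the log2 fold change was 0.16. Stage 6 and Stage 5 libraries did not overlap in CPM for 534 of the 540 genes called higher and 53 of the 56 called lower. Of all tested genes, 13.6% had every Stage 6 library above every Stage 5 library and 10.1% had every one below. These shares are descriptions, since the calls rest on the same values.

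**Figure D2:**
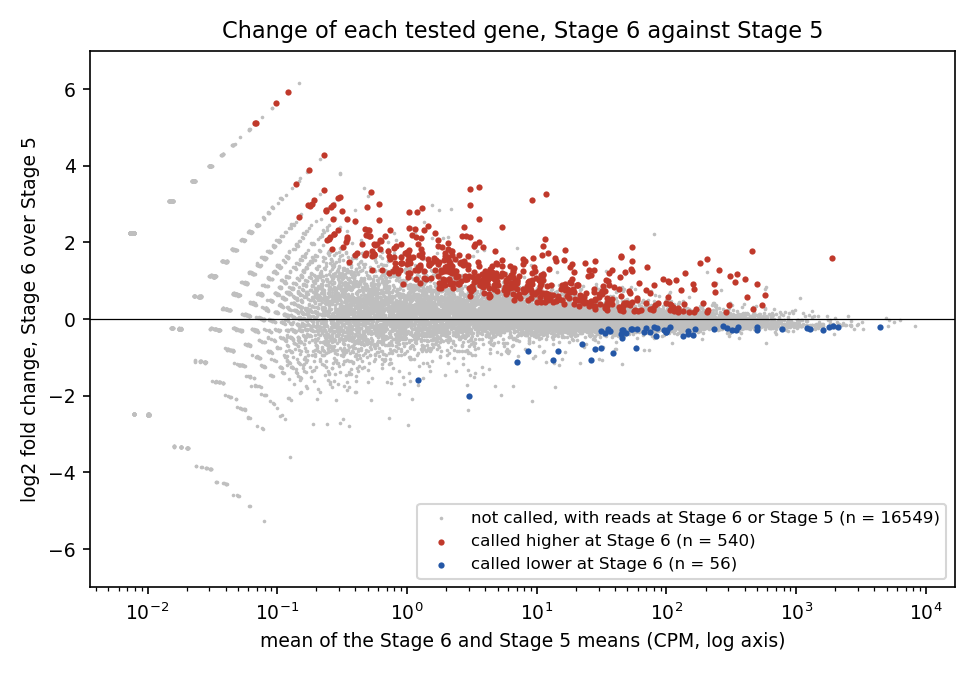
Log2 fold change of Stage 6 over Stage 5 for each tested gene with reads at either stage, against its mean level over both stages (CPM, log axis). The 540 genes called higher (red) spread up to 8-fold and beyond, and the 56 called lower (blue) lie close to the zero line, mostly at high levels.

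The genes called higher were mostly of modest level at Stage 6. Their median level was 7.29 CPM at Stage 6 and 3.38 CPM at Stage 5, beside 14.5 and 13.9 CPM over all tested genes. A mean of 10 CPM or more was reached by 228 of them at Stage 6 and 170 at Stage 5, and one of 100 CPM or more by 45 at Stage 6 and 30 at Stage 5. Together they held 20731, 22899.9 and 22070 CPM in the Stage 6 libraries, against 12712, 12374 and 12205 CPM in the Stage 5 libraries. The summed level was therefore higher in every Stage 6 library, with means of 21900 ± 1094 CPM at Stage 6 and 12430 ± 258 CPM at Stage 5 (SD, n = 3 each), which the choice of genes fixes. Of the 540 genes, 4 had 0 reads in all Stage 5 libraries.

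The largest rise among genes of at least 10 CPM was that of LOC112564630. It had 12.7, 21.9 and 29.9 CPM in the Stage 6 libraries, against 2.09, 1.36 and 3.32 CPM in the Stage 5 libraries. The groups did not overlap, and Stage 6 replicate 1 was the lowest of its stage. On the log2 scale the rise was 3.25 ± 0.30 (SE; edgeR adjusted p = 3.3e-08). The level went on upward, to 321, 288 and 401 CPM in the Stage 7 libraries and a mean of 815 ± 184 CPM (SD, n = 4) in the hatchling.

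LOC112564731 came next by the same rule. It had 10.2, 14.99 and 24.5 CPM at Stage 6, against 1.95, 1.11 and 2.71 CPM at Stage 5. Again every Stage 6 library was above every Stage 5 library, and replicate 1 was the lowest and replicate 3 the highest of the Stage 6 libraries, as for LOC112564630. On the log2 scale it rose by 3.09 ± 0.289 (SE; edgeR adjusted p = 4.04e-08). Its mean was 158 CPM at Stage 7, 364 CPM at Stage 9 and 345 CPM in the hatchling. Both genes stayed called under all 16 alternative settings.

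Other genes are named below for their level, their later course or their place beside another gene, and these were chosen after their values were seen. LOC112561353 took the most reads at Stage 6 among the genes called higher. It had 2812, 3054 and 2684 CPM in the Stage 6 libraries, against 993, 862 and 965 CPM in the Stage 5 libraries. The rise was 1.60 ± 0.216 on the log2 scale (SE; edgeR adjusted p = 2.37e-05). It was nearly silent at Stage 2, the earliest stage sampled, with a mean of 1.65 CPM. Its mean was 61.4 CPM at Stage 4, 6245 CPM at Stage 7, 16410 CPM at Stage 8 and 6867 CPM in the hatchling. Without this gene, the summed level of the genes called higher was 19050 CPM at Stage 6 and 11490 CPM at Stage 5.

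LOC112560121 had few reads at Stage 5, with 373 reads over the Stage 6 libraries and 29 over the Stage 5 libraries, and rose steeply after Stage 6. It had 2.71, 7.54 and 6.74 CPM at Stage 6, against 1.14, 0.123 and 0.181 CPM at Stage 5. Stage 5 replicate 1 stood above the other Stage 5 libraries but below every Stage 6 library. The log2 fold change was 3.40 ± 0.651 (SE; edgeR adjusted p = 0.00168), and 5.17 without Stage 5 replicate 1. The call was lost under 4 of 16 alternative settings. Its mean was 1024 CPM at Stage 7, 4419 CPM at Stage 8, 9791 CPM at Stage 10 and 9420 CPM in the hatchling.

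**Figure D3:**
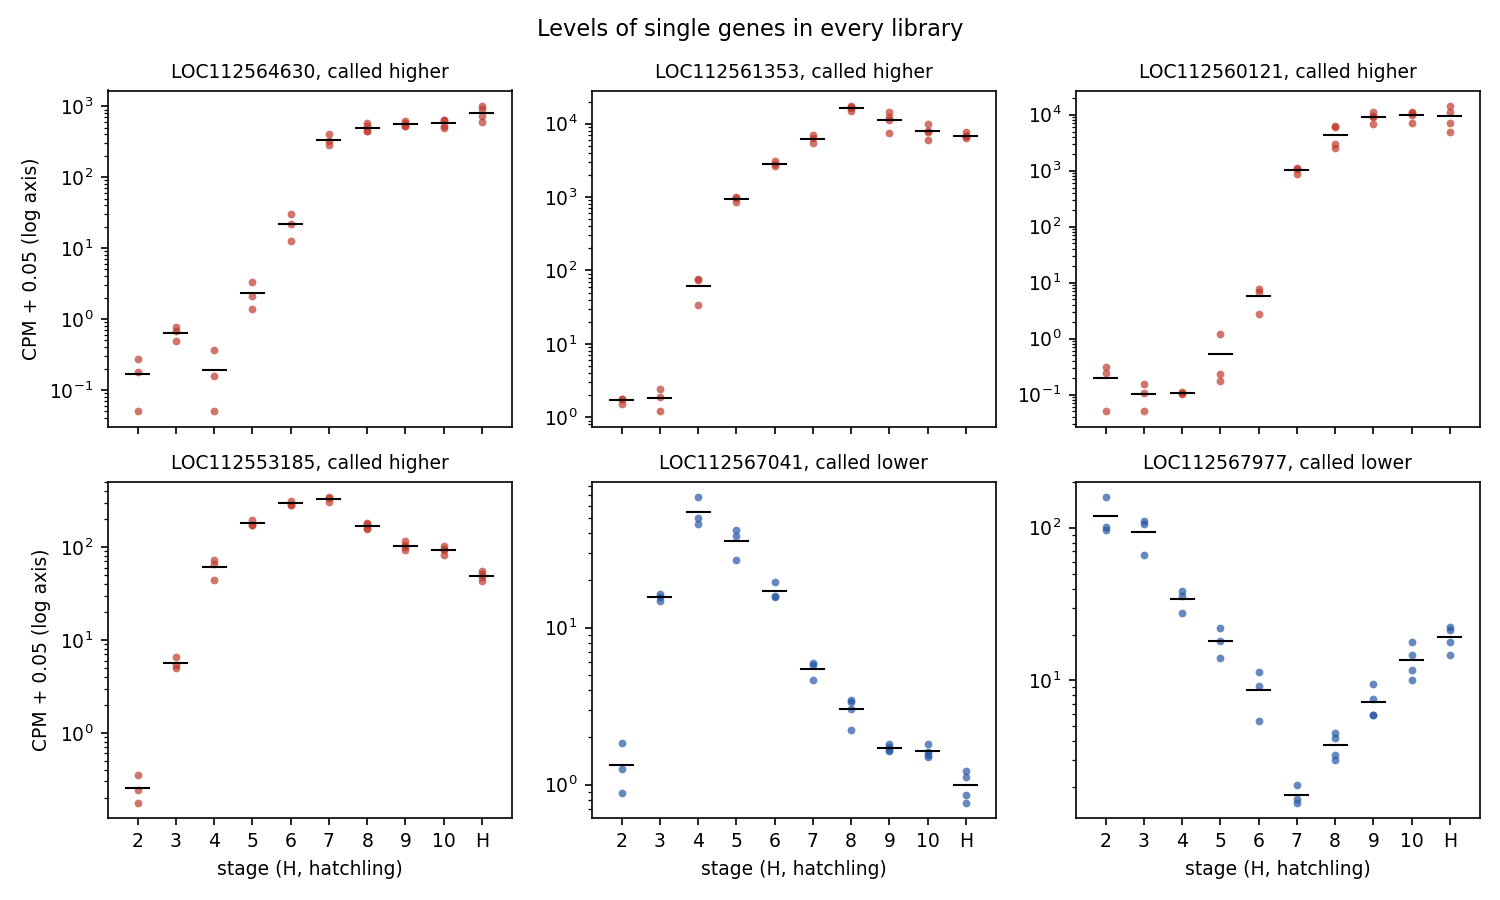
Level of 6 genes in every library (points, CPM + 0.05, log axis) with the stage mean as a bar, from Stage 2 to the hatchling (H). LOC112564630, LOC112561353 and LOC112560121 climbed by orders of magnitude, LOC112553185 climbed until Stage 7 and then declined, and LOC112567041 and LOC112567977 declined through Stage 5 and Stage 6, the second of them returning after Stage 7.

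Nearly all genes called higher at Stage 6 were also higher at later stages when these were set against Stage 4. The means compared use no Stage 5 or Stage 6 library. The spread of each gene was estimated over all 34 libraries, so these tests are not fully independent of the choice of genes. At Stage 7 against Stage 4, edgeR called 539 of the 540 higher and 0 lower, where 31.6% of all tested genes were called higher and 26.4% lower. At Stage 8 the numbers were 536 higher and 0 lower (39.7% and 33.1% of all tested genes). At Stage 9, 536 were higher and 2 lower (43.8% and 35%), and at Stage 10, 537 were higher and 2 lower (44.6% and 34.3%). In the hatchling, 529 were higher and 4 lower (47.4% and 35.9%). Their median log2 fold change against Stage 4 was 3.79 at Stage 7, 4.46 at Stage 8, 4.75 at Stage 9, 4.62 at Stage 10 and 4.73 in the hatchling, beside 0.10 to 0.30 for all tested genes over the same comparisons.

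Their summed level was higher at each stage after Stage 6 than at Stage 6. It was 3541 CPM at Stage 2, 4256 CPM at Stage 3, 6020 CPM at Stage 4, 12430 CPM at Stage 5, 21900 CPM at Stage 6, 40980 CPM at Stage 7, 68430 CPM at Stage 8, 77530 CPM at Stage 9, 70690 CPM at Stage 10 and 66110 CPM in the hatchling. The highest mean was thus at Stage 9. The SD was 917 CPM at Stage 7 (n = 3), 3809 CPM at Stage 9 and 8648 CPM in the hatchling (n = 4 each). The median level per gene was 19.2 CPM at Stage 7, 30.1 CPM at Stage 8, 35.4 CPM at Stage 9 and 35.0 CPM in the hatchling.

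**Figure D4:**
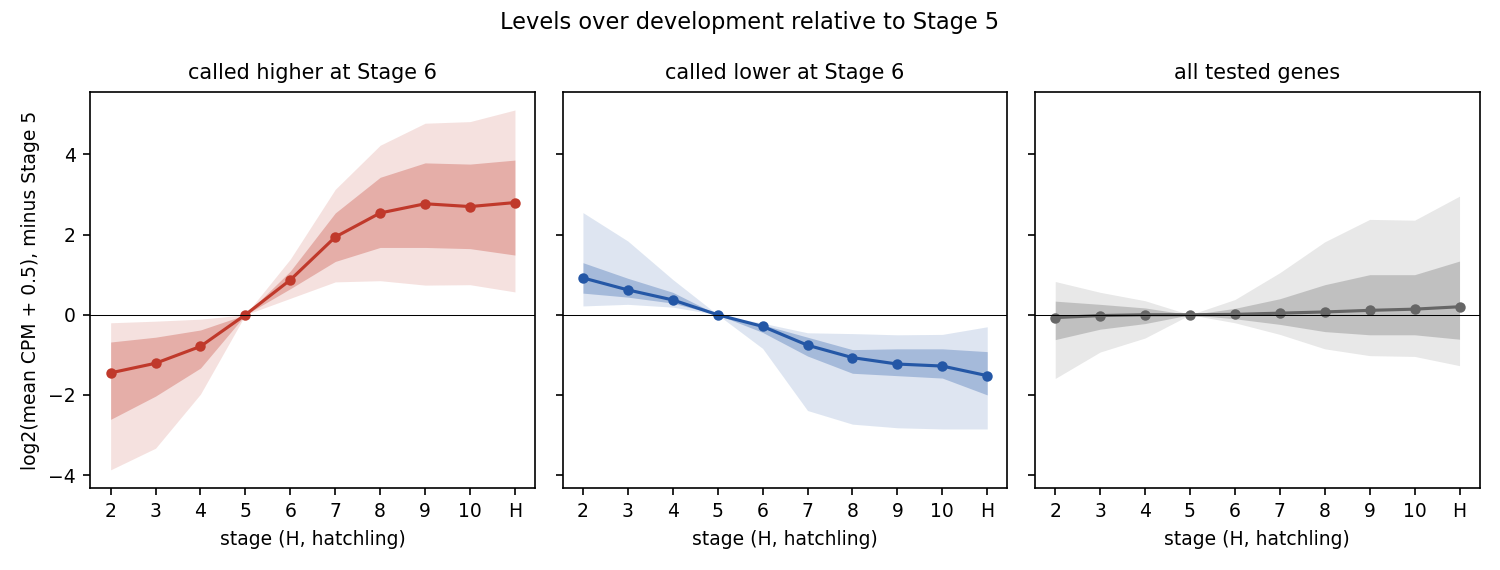
Levels over development as log2(mean CPM + 0.5) minus the Stage 5 value, for the genes called higher at Stage 6, those called lower and all tested genes. Lines are medians, dark bands hold the middle 50% and light bands the middle 80% of genes. The median of the genes called higher stands 0.87 above Stage 5 at Stage 6, 1.94 at Stage 7 and 2.80 in the hatchling.

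Between single later stages, edgeR called these genes higher more often than all tested genes up to Stage 9 and not after it. At Stage 8 against Stage 7, edgeR called 327 of the 540 genes higher (60.6%, beside 22.9% of all tested genes) and 37 lower (6.85%, beside 23.2%). At Stage 9 against Stage 8 it called 167 higher (30.9%, beside 12.4%) and 21 lower (3.89%, beside 10.2%). At Stage 10 against Stage 9 it called 5 higher (0.926%, beside 2.64%) and 9 lower (1.67%, beside 2.51%), both near or under the background. In the hatchling against Stage 10, 75 were higher (13.9%, beside 16.9%) and 97 lower (18%, beside 19.3%). The median log2 fold change of the 540 genes was 0.64, 0.21, -0.01 and -0.04 at these 4 steps in order.

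**Figure D5:**
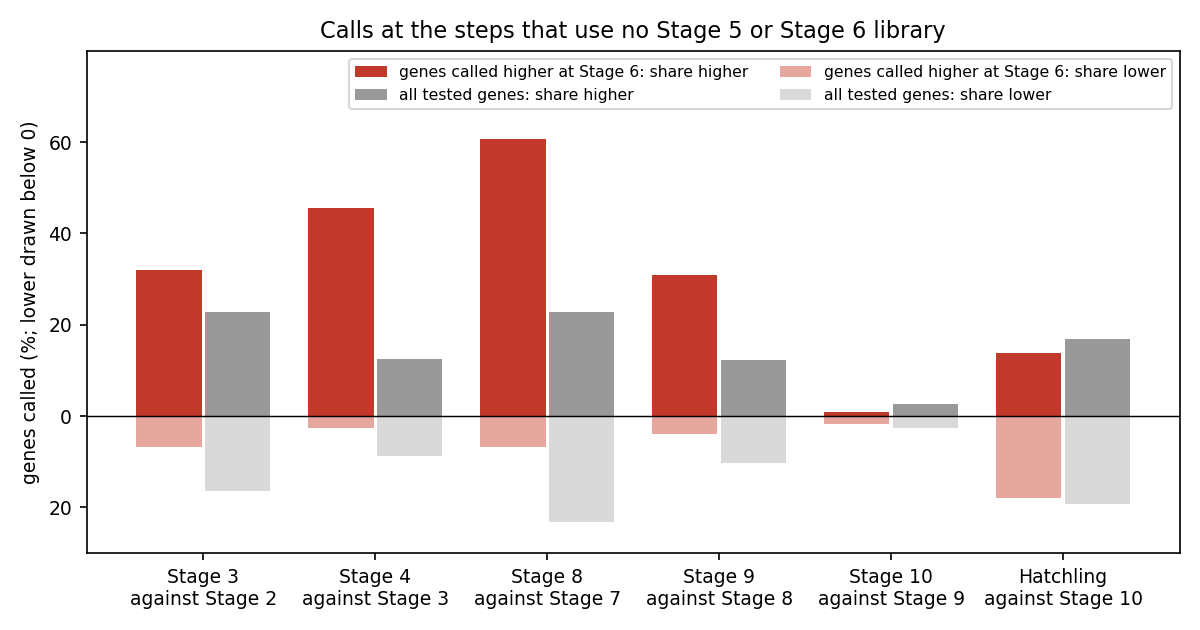
Share of the 540 genes called higher at Stage 6 (red) and of all tested genes (grey) called higher, drawn above 0, or lower, drawn below 0. The steps shown are those whose means use no Stage 5 or Stage 6 library. The red bars stand above the grey ones for higher calls up to Stage 9 against Stage 8, and not for Stage 10 against Stage 9 or the hatchling against Stage 10.

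Part of the 540 genes were also called higher at earlier steps. At Stage 4 against Stage 3, whose means use no Stage 5 or Stage 6 library, 246 were called higher (45.6%, beside 12.6% of all tested genes). There 14 were lower (2.59%, beside 8.8%), and 280 were not called. At Stage 3 against Stage 2, 173 were higher (32%, beside 22.7%) and 36 lower (6.67%, beside 16.3%), and 331 were not called. Both steps next to the one studied share libraries with it. Stage 5 against Stage 4 shares Stage 5, and there 401 were called higher and 0 lower (12% and 10.7% of all tested genes). Stage 7 against Stage 6 shares Stage 6, and there 462 were called higher and 3 lower (16.4% and 14.1%). The stage means of 299 of the 540 genes rose at every step from Stage 2 to Stage 6, and those of 410 at every step from Stage 4 to Stage 8. Both paths include the step to Stage 6, where the choice of genes largely fixes the rise. The shares of all tested genes for these paths were not computed.

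Many of these genes were close to undetected at Stage 2, the earliest stage sampled. Over the 3 Stage 2 libraries, which together hold 55988658 reads, 185 of the 540 genes (34.3%) had 3 reads or fewer, beside 15.4% of all tested genes. A mean of 1 CPM or more was reached by 169 of the 540 at Stage 2, 282 at Stage 4, 390 at Stage 5, 481 at Stage 6, 525 at Stage 7 and 537 in the hatchling. Stage 6 was the first stage with a mean of 1 CPM or more for 88 of them. The choice of genes by a higher level at Stage 6 favours a crossing there. For the counts at 1 CPM, the shares of all tested genes were not computed.

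Few of the 540 genes had their highest stage mean at Stage 6, as was so for all tested genes. The highest stage mean fell in the hatchling for 186 of the 540 genes (34.4%, beside 30.5% of all tested genes), at Stage 9 for 139 (25.7%, beside 8.91%), at Stage 10 for 88 (16.3%, beside 5.96%), at Stage 7 for 59 (10.9%, beside 6.72%), at Stage 8 for 58 (10.7%, beside 5.62%), at Stage 6 for 7 (1.3%, beside 2.96%) and at Stage 2 for 3 (0.556%, beside 22.3%). The hatchling mean exceeded the Stage 6 mean for 482 genes, was at least 4 times as high for 285 and at least 16 times as high for 71. It was below the Stage 5 mean for 22 genes. The median ratio of the hatchling mean to the Stage 6 mean was 4.24. These ratios were not computed over all tested genes, and the Stage 5 and Stage 6 means in them are those by which the genes were chosen.

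The genes with the highest mean at Stage 6 were LOC112554343, LOC112557070, LOC112560630, LOC112560702, LOC112564260, LOC112564526 and LOC112567506. Their calls at Stage 6 were lost under 1 (LOC112560702 and LOC112564260) to 9 (LOC112564526) of the alternative settings. Only LOC112554343 of these was called lower at Stage 7 against Stage 6. LOC112560630, for example, averaged 310 CPM at Stage 6 and 300 CPM at Stage 7 (edgeR adjusted p = 0.96). LOC112564260 had 75.3, 83.0 and 84.8 CPM at Stage 6, against 42.0, 47.7 and 37.8 CPM at Stage 5, with no overlap. Its log2 fold change was 0.93 ± 0.197 (SE; edgeR adjusted p = 0.00492). It had 70.1 CPM at Stage 7, 34.6 CPM at Stage 8 and 9.46 CPM in the hatchling, against 8.00 CPM at Stage 4, and its hatchling and Stage 4 levels differed by 0.25 on the log2 scale (adjusted p = 0.249).

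In the hatchling, 4 of the 540 genes were called lower than at Stage 4. LOC112553185 had 287, 315 and 286 CPM at Stage 6, against 194, 171 and 174 CPM at Stage 5, which is a difference of 0.72 ± 0.125 on the log2 scale (SE; edgeR adjusted p = 0.000577). It averaged 330 CPM at Stage 7 and 49.1 CPM in the hatchling, against 60.8 CPM at Stage 4, so the hatchling was lower than Stage 4 (log2 fold change -0.31, edgeR adjusted p = 0.0191). The others lower in the hatchling than at Stage 4 were LOC112555953, LOC112560768 and LOC112574339. Their calls at Stage 6 were lost under 8, 2 and 10 of 16 alternative settings, in that order.

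The 3 genes called higher at Stage 6 and lower at Stage 7 against Stage 6 were LOC112554343, LOC112565653 and LOC112565702. LOC112554343 had 14.7, 17.7 and 14 CPM at Stage 6, against 6.38, 10.2 and 8.80 CPM at Stage 5, and 9.85 CPM on average at Stage 7, and its call at Stage 6 was lost under 6 of 16 alternative settings. LOC112565702 rested on a single library. It had 0.437, 0.316 and 2.48 CPM at Stage 6, against 0.0952, 0.0617 and 0.241 CPM at Stage 5, and without Stage 6 replicate 3 its log2 fold change was 1.5 in place of 3.0, with an edgeR adjusted p of 0.49. It was also the 1 gene of the 540 not called higher at Stage 7 against Stage 4.

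The 56 genes called lower at Stage 6 drew many reads and mostly had their highest levels in the earliest stages sampled. Which genes were called lower depended on single libraries, since 6 of the 56 were still called without Stage 6 replicate 3, 9 without Stage 6 replicate 2, 15 without Stage 5 replicate 1 and 16 without Stage 5 replicate 3. Their median level was 72.5 CPM at Stage 6 and 89.1 CPM at Stage 5, beside 14.5 and 13.9 CPM over all tested genes. Their summed level was 18740 ± 737 CPM at Stage 6 and 22150 ± 321 CPM at Stage 5 (SD, n = 3 each), with 42500 CPM at Stage 2, 14350 CPM at Stage 7 and 9840 CPM in the hatchling. The highest stage mean fell at Stage 2 for 40 of them, at Stage 3 for 10, at Stage 4 for 5 and at Stage 5 for 1, beside 22.3%, 9.2%, 5.37% and 2.49% of all tested genes at these stages in order. LOC112563564, the 1 at Stage 5, had 33.5, 23.8 and 23.6 CPM at Stage 6, against 55.6, 41.8 and 53.2 CPM at Stage 5.

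Against Stage 4, all 56 were called lower at Stage 7, Stage 8 and Stage 9, where 26.4%, 33.1% and 35% of all tested genes were called lower, in that order. In the hatchling 55 were called lower (35.9% of all tested genes), and 0 were called higher in any of these comparisons. Their median log2 fold change against Stage 4 was -1.20 at Stage 7 and -1.96 in the hatchling. LOC112557547 was the exception in the hatchling, where its log2 fold change against Stage 4 was -0.17 (edgeR adjusted p = 0.127). At Stage 8 against Stage 7, 33 of the 56 were lower (58.9%, beside 23.2% of all tested genes) and 5 were higher (beside 22.9%), LOC112559197, LOC112559229, LOC112561689, LOC112567977 and LOC112575668. The Stage 6 calls of these 5 were lost under 7 (LOC112559197 and LOC112559229) to 12 (LOC112561689) of 16 alternative settings.

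By the rule for named genes, LOC112567041 had the largest fall. It had 19.5, 15.5 and 15.8 CPM at Stage 6, against 42.1, 27.1 and 38.1 CPM at Stage 5, with no overlap. The log2 change was -1.08 ± 0.187 (SE; edgeR adjusted p = 0.000558). Its level was low at Stage 2, the earliest stage sampled, with means of 1.28 CPM at Stage 2, 15.6 CPM at Stage 3 and 54.6 CPM at Stage 4. Afterwards it stood at 5.39 CPM at Stage 7 and 0.940 CPM in the hatchling.

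LOC112567977 had 11.2, 9.21 and 5.39 CPM at Stage 6, against 14.04, 18.0 and 22.0 CPM at Stage 5. Its log2 fold change was -1.06 ± 0.27 (SE; edgeR adjusted p = 0.0227), and the call was lost under 8 of 16 alternative settings, with adjusted p between 0.00381 and 1. It fell and then returned. Its means were 119 CPM at Stage 2, 33.9 CPM at Stage 4, 1.73 CPM at Stage 7, 3.71 CPM at Stage 8 and 19.1 CPM in the hatchling. Stage 8 was higher than Stage 7 by 1.06 on the log2 scale (edgeR adjusted p = 0.0108).

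LOC112554522, which took the most reads among the genes called lower, fell slightly. It had 4261, 4103 and 3914 CPM at Stage 6, against 4567, 4594 and 4961 CPM at Stage 5. The log2 change was -0.20 ± 0.0568 (SE; edgeR adjusted p = 0.0427), and the call was lost under 12 of 16 alternative settings.

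The direction of change at Stage 6 was set beside that over the wider interval. Of the 5503 genes that edgeR called higher at Stage 7 against Stage 4, 4811 (87.4%) had a positive log2 fold change at Stage 6 against Stage 5, with a median of 0.26, and 539 (9.79%) were called higher there. Of the 4613 genes called lower at Stage 7 against Stage 4, 4031 (87.4%) had a negative one, with a median of -0.11, and 56 (1.21%) were called lower. Of the 7325 genes not called over the wider interval, 51.2% had a positive log2 fold change at this step, and 1 was called. Among the 1461 genes higher by 8-fold or more at Stage 7 than at Stage 4, 353 (24.2%) were called higher at Stage 6. The counts of signs are descriptions of genes most of which were not called at this step.

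Stage 6 against Stage 5 had fewer calls than the steps on either side. It had 596 calls and a median size of the log2 fold change of 0.16 over all tested genes, beside 3958 calls and 0.27 for Stage 5 against Stage 4 and 5307 calls and 0.30 for Stage 7 against Stage 6. A count of calls does not test a difference between steps, so the difference was tested for each gene. The step to Stage 6 differed from the step to Stage 5 for 90 genes (0.516% of those tested), of which 1 (0.00573%) had the larger log2 change at the step to Stage 6 and 89 (0.51%) the smaller, counted with its sign. This test uses the Stage 5 and Stage 6 libraries by which the 540 genes were chosen, so their counts in it are descriptions. Of the 540 genes called higher, 41 were among the 89. LOC112561353 was one of them, with log2 fold changes of 1.60 at the step to Stage 6 and 3.93 at the step to Stage 5 (edgeR adjusted p of the difference = 0.000862). The number was 237 without Stage 4 replicate 3, 54 without Stage 4 replicate 1 and 54 without Stage 5 replicate 1.

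The step to Stage 7 differed from the step to Stage 6 for 26 genes (0.149% of those tested), with the larger log2 change at the step to Stage 7 for 24 (0.138%) and the smaller for 2 (0.0115%). Of the 540 genes called higher, 6 were among these 24, and 1, LOC112565653, had the smaller change. These counts are descriptions too, since the test uses the Stage 5 and Stage 6 libraries by which the 540 genes were chosen. LOC112555746 had log2 fold changes of 3.59 at the step to Stage 7 and 0.98 at the step to Stage 6 (edgeR adjusted p of the difference = 0.00156). The count was 1 without Stage 6 replicate 1, 5 without Stage 6 replicate 3, 8 without Stage 6 replicate 2, 6 without Stage 5 replicate 1 and 9 without Stage 5 replicate 3. For the other genes, a difference between the steps was not detected at this number of libraries.

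Some of the genes called higher lay beside each other in the genome. In the order of tested genes in the reference table of assembly ASM307304v1, 84 of the 540 (15.6%) had another gene called higher as a direct neighbour, beside 5.75% of the other tested genes. They formed 39 runs, of which 35 had 2 genes, 2 had 3 genes and 2 had 4 genes. Of the 45 neighbouring pairs, 4 overlapped in the table, and reads of overlapping or near-identical genes may be shared, which these counts do not show. No gene called lower had another such gene beside it.

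One run of 4 was LOC112559484, LOC112559483, LOC112559485 and LOC112559482. LOC112559483 had 15.9, 20.7 and 19.9 CPM at Stage 6, against 6.43, 4.75 and 5.79 CPM at Stage 5. Its log2 fold change was 1.73 ± 0.139 (SE; edgeR adjusted p = 3.06e-09), and the call was kept under all 16 alternative settings. Its mean was 0.778 CPM at Stage 4, 70.2 CPM at Stage 7 and 64.1 CPM in the hatchling. The other three rose by log2 fold changes of 2.22, 1.25 and 1.73, in the order given.

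The other run of 4 was LOC112561403, LOC112561406, LOC112561401 and LOC112561404. The spans of LOC112561406 and LOC112561401 overlap in the assembly, so their reads may be shared. LOC112561406 had 479, 579 and 566 CPM at Stage 6, against 210, 253 and 320 CPM at Stage 5, which is a difference of 1.05 ± 0.247 on the log2 scale (SE; edgeR adjusted p = 0.0118). The call was lost under 4 of 16 alternative settings, among them without Stage 5 replicate 1, without Stage 5 replicate 2 and without Stage 6 replicate 2. Its means were 0.251 CPM at Stage 3, 46.0 CPM at Stage 4, 1227 CPM at Stage 8 and 420 CPM in the hatchling. All 4 genes had means under 0.5 CPM at Stage 2 and Stage 3 and over 300 CPM at Stage 6.

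This run belonged to a stretch of 20 neighbouring tested genes of which 10 were called higher at Stage 6 and 18 had a higher mean at Stage 6 than at Stage 5. No stretch of 20 held more genes called higher, and 5 stretches, this one included, held 10. Stretches started at successive genes and so overlap, and these 5 need not be separate places in the genome. The stretch shown was chosen for its count, so the count is a description. Over the 17156 stretches of 20 genes the mean was 0.622 genes called higher, the median was 0, and 67 stretches, many of them overlapping, had 5 or more. LOC112561402, LOC112561400 and LOC112561405, which follow the run, missed the threshold with edgeR adjusted p of 0.0601, 0.0601 and 0.0527. LOC112562093 in the same stretch went the other way over development, with 25.3 CPM at Stage 6, against 26.7 CPM at Stage 5, and 67.3 CPM at Stage 2.

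A run of 3 held genes of unlike later course. LOC112560121, described above, lies beside LOC112560630 and LOC112560562. LOC112560630 had 284, 331 and 314 CPM at Stage 6, against 143, 90.9 and 77.5 CPM at Stage 5, and 120 CPM on average in the hatchling. LOC112560562 had 590, 638 and 879 CPM at Stage 6, against 351, 148 and 119 CPM at Stage 5, and averaged 1818 CPM at Stage 7 and 420 CPM in the hatchling. Its log2 fold change was 1.77, and 2.39 without Stage 5 replicate 1, the highest of its stage. The calls of LOC112560630 and LOC112560562 were each lost under 6 of 16 alternative settings.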

How the data were processed

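The deposited values are raw counts of reads, 1 column per library, which the authors did not normalize. The submitters' processing notes name STAR. Not given in the sources used here are its version, the genome build, annotation, strandedness and handling of multi-mapping reads. All 21131 identifiers matched the reference table of ASM307304v1, which was used only for gene order.

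The filterByExpr function, with stage as the group and a minimum count of 10, left 17441 genes. It removed 3690, and 334 of those had 0 reads throughout. TMM factors scaled the totals. The quasi-likelihood test of edgeR 4.0.16 (R 4.3.3) used 1 coefficient per stage over 34 libraries, with 24 residual degrees of freedom. Adjustment of p-values was by Benjamini and Hochberg over all tested genes, and the SE is the size of the fold change over the square root of F. CPM values use TMM-scaled totals. Positions were computed on log2(CPM + 1). Scripts were tested on simulated data.

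Within Stage 6 and Stage 5 the chi-square statistic per gene between libraries was 10 to 15.9, so none was a copy. Same-numbered libraries of the stages had correlations of deviations of 0.13, 0.45 and -0.09, so numbers were not taken to pair them.

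The rule for named genes took the 2 called genes higher and the 2 lower of largest log2 fold change that had at least 10 CPM in the higher stage, 10 reads or more in the lower one and no overlap. Members, lists and tests were chosen with earlier results of these data known. Lists by product name and sequence features could not be applied, because the tables used here pair no identifier with a product or sequence. Alternatives used DESeq2 1.42.0 and limma 3.58.1 (voom), other scalings and filters, a 2-fold minimum, both stages alone, a replicate block and each library left out. Figures were drawn with matplotlib 3.10.9.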

Additional observations from a re-analysis of the deposited data

Results flagged for a closer look

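Among 24 sets of values within stages of 4 libraries, where chance gives a far library in about 5% of sets, 1 held a library far from the others. The summed level of the genes called lower at Stage 6 was 10070 CPM in Stage 10 replicate 4, below the other Stage 10 libraries. The change of the step to Stage 6 differed from that of the step to Stage 5 for 90 genes in the edgeR test of the difference. The change of the step to Stage 7 differed from that of the step to Stage 6 for 26 genes in the same test.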

How the results depend on the processing

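No fold change compared here changed sign under the alternatives run. With limma-voom, 223 genes were called between Stage 6 and Stage 5, of which 199 were higher (109 by 2-fold) and 24 lower (1 by 2-fold). Against a 2-fold minimum, edgeR called 18, all higher by 2-fold, and 0 lower. Fitting both stages alone gave 381 calls, with 290 higher (142 by 2-fold) and 91 lower (3 by 2-fold), so 76.1% were higher in place of 90.6%. DESeq2 gave more calls, with 521 of the 540 genes and 207 further genes higher, and 151 lower (11 by 2-fold). Library totals without TMM called all 540 and 91 further genes higher, and 31 lower. Over all alternatives the number of calls ran from 18 to 879. Leaving out each library in turn gave 319 to 563 calls, 309 to 484 higher, 7 to 79 lower and 3 to 13 lower by 2-fold. With the replicate block and both stages alone, 174 were called, 152 higher (87 by 2-fold) and 22 lower. With the replicate block over all libraries, 485 of the 540 higher and 43 of the 56 lower calls were shared. The replicate numbers were not taken to pair the libraries in the main fit. Over the 15 alternatives other than the 2-fold minimum, 68 genes were called higher and 2 lower in every one.

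Of the 540 genes, the 2-fold minimum called 56 higher and 1 lower at Stage 8 against Stage 7, 1 higher and 0 lower at Stage 9 against Stage 8, 0 either way at Stage 10 against Stage 9, and 1 higher and 0 lower in the hatchling against Stage 10. Limma-voom called 34 lower at Stage 9 against Stage 8, 59 higher and 49 lower at Stage 10 against Stage 9, and 124 higher and 164 lower in the hatchling against Stage 10. At Stage 10 against Stage 9, DESeq2 called 17 higher and 37 lower, library totals 11 higher and 4 lower, and RLE size factors 15 lower, and leaving out each library gave 3 to 9 higher and 3 to 9 lower. There the balance of calls turned round, with 5 higher and 9 lower by the settings used in the text and more higher than lower with library totals and limma-voom. The shares of all tested genes under these alternatives were not computed, so whether these counts exceed that background is not known.

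The step to Stage 6 differed from the step to Stage 5 for 185 genes with DESeq2, 24 with limma-voom, 6 with the 2-fold minimum and 54 to 237 leaving out each library. The step to Stage 7 differed from the step to Stage 6 for 148 genes with DESeq2, 7 with limma-voom, 0 with the 2-fold minimum, 16 with the replicate block and 1 to 30 leaving out each library. The causes were not tested. The position difference stayed between 0.206 and 0.232 leaving out each library and was 0.118 on the line from Stage 3 to Stage 8. DESeq2 gave no adjusted p for LOC112575914, so that value has no verdict.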
